A study of Rattus norvegicus with 14 samples.

Results

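Genes of the cell cycle were examined in the newborn rat foreskin: 32 genes that copy DNA or carry out mitosis, of which 27 were measured among the 14497 genes compared on the array. The list was set by gene name, with earlier results of these data known. A gene was measured when a probe set, the group of probes that reads a transcript, was annotated with that symbol and no other. Of 10 listed genes of S phase, in which DNA is copied, 8 were measured, and of 22 mitotic genes 19. Mcm3, Mcm4, Mki67, Cenpe and Cenpf were not analysed here. Ccnb2, Ska2 and Rrm2 had 2 probe sets each, which made 30 probe sets in all.

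The samples were foreskins of Sprague Dawley pups at postnatal day 5. Their mothers had been dosed by oral gavage from gestational day 16 to 20, either with corn oil, the vehicle, or with 5 mg/kg/day flutamide, a drug that blocks the androgen receptor. Each group held 7 litters, and 1 sample was RNA of 2 foreskins pooled from 1 litter, so the litter was the replicate. The arrays were of the Affymetrix Gene 1.0 ST type, and all values below are on a log2 scale. Some keratinocyte and dermal markers were bright in every litter. Krt14, a basal keratin, lay between 9.60 and 10.1, and Krt1, a suprabasal keratin, between 11.8 and 12.1. Col1a1, a collagen of the dermis, lay between 8.79 and 9.32. Other markers were dimmer, with lowest single values of 6.63 for basal keratinocyte, 8.16 for suprabasal keratinocyte and 6.24 for dermal fibroblast markers. The medians of the 14 samples spanned 0.073, and samples correlated over genes at 0.984 to 0.992. The SD of the values on an array ran from 1.68 in flutamide replicate 7 to 1.76 in corn oil replicate 1. In tissue of mixed cells, fewer dividing cells and less of these RNAs per dividing cell cannot be told apart.

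Dividing cells make the proteins of DNA replication around the start of S phase, largely under the E2F transcription factors, and those of mitosis later. Many mitotic promoters carry CCAAT boxes, bound by NF-Y, and a cell cycle homology element, through which the DREAM complex represses and the MYB-MuvB complex with FOXM1 activates transcription. In skin of newborn animals the dividing cells are mostly those of the basal epidermis, the hair follicle matrix and the growing dermis.

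The promoters of 6 genes are shown because 5 of them carry the elements searched and because Ska2 is set beside its copy Ska2l1. A Ska2 probe set described below is numbered among neighbours of Ska2l1, and which of these genes it reads was not tested. The promoters are the 250 bases before the gene start, credited to RefSeq with build GRCr8, 5′ to 3′. Capitals mark matches on either strand to the CCAAT box (letters CCAAT), the cell cycle homology element (letters TTTGAA), and the E2F motif, whose first form was TTCCCGC. Its second form was TTGGCGC, which on the other strand overlaps a CCAAT box in Ska2. Positions are chr8:79981659-79981908 (- strand) for Ccnb2, chr20:19265043-19265292 (+ strand) for Cdk1, chr2:33655226-33655475 (- strand) for Ccnb1, chr13:42404353-42404602 (- strand) for Mcm6, chr10:72418592-72418841 (+ strand) for Ska2 and chr1:193656772-193657021 (+ strand) for Ska2l1.
Ccnb2: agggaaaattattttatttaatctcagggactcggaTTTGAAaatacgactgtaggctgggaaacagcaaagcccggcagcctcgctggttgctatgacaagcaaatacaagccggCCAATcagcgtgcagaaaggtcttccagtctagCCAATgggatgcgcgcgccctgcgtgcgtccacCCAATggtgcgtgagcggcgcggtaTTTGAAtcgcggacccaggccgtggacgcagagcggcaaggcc
Cdk1: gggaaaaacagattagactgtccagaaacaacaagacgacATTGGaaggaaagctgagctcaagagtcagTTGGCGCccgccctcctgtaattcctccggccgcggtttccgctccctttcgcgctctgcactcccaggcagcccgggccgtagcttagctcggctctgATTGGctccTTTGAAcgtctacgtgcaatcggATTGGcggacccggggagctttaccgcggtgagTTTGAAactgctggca
Ccnb1: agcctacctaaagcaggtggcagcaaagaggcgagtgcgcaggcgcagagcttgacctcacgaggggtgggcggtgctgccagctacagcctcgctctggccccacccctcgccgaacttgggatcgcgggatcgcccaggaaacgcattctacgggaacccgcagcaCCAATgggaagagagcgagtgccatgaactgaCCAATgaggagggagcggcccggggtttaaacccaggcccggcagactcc
Mcm6: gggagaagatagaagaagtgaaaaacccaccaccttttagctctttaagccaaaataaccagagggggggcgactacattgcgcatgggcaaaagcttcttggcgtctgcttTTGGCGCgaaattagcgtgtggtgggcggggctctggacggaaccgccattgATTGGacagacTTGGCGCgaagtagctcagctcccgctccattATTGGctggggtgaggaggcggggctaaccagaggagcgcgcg
Ska2: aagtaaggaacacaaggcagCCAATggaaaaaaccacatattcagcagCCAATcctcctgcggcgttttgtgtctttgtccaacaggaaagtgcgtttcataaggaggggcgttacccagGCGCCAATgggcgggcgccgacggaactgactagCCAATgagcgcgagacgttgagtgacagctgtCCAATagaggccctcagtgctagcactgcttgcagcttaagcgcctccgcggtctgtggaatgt
Ska2l1: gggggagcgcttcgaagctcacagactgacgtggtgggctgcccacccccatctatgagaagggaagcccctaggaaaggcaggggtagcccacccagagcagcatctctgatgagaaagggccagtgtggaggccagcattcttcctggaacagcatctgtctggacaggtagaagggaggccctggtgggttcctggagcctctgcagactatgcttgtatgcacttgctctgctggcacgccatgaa

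The Ccnb2 promoter held 3 CCAAT boxes, beginning 134, 101 and 68 bases before the start, and a TTTGAA element at 43 and another at 214 bases. That of Cdk1 held 3 CCAAT boxes, 2 TTTGAA elements and 1 TTGGCGC. Ccnb1 held 2 CCAAT boxes, and the S phase gene Mcm6 held 2 TTGGCGC motifs and 2 CCAAT boxes. Ska2 held 5 CCAAT boxes, while the window of Ska2l1 held none of the letters searched.

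Promoters of 15 mitotic and 6 S phase genes were in the table. Aurkb, Ccna2, Ccne2, Foxm1, Rrm2 and Ube2c were not in it. A CCAAT box stood in 12 of the 15 mitotic promoters, against 35.6% of the promoters of all tested genes and 34.0% of all 33469 promoters, and in 3 of the 6 S phase promoters. TTTGAA stood in 5 of 15 mitotic and 1 of 6 S phase promoters, against 13.9% of tested genes and 16.2% of all promoters. A CCAAT box together with TTTGAA stood in 5 of 15, those of Birc5, Ccnb2, Cdc20, Cdk1 and Top2a, and in 0 of 6 S phase promoters, against 5.22% of tested genes and 5.87% of all promoters. For S phase genes an E2F form stood in 3 of 6 promoters (Mcm5, Mcm6 and Tyms) against 7.72% of tested genes and 5.00% of all promoters. The mitotic promoters held one in 2 of 15, those of Cdk1 and Ska2. These matches describe letters and do not show that a factor binds. Other spellings of the elements were not searched, so a promoter without a match may still carry an element.

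The first question was whether cell cycle genes differed between flutamide and corn oil litters. None of the 27 genes passed limma's moderated test at an adjusted p under 0.05, where 0.00690% of all genes tested did so, and the smallest adjusted p among them was 0.368. At an unadjusted limma p under 0.05, 3 had lower values in flutamide litters (Ccnb2, Ska2 and Ccna2) against 3.46% of all genes, and 0 had higher values against 5.70%. The first count was 1 without corn oil replicate 3 or 4 or flutamide replicate 3 or 5, and the second was 1 without corn oil replicate 1 or 4 or flutamide replicate 7. Centring every sample at its median split all genes at this threshold into 668 higher and 641 lower, instead of 826 and 502. The groups overlapped for all 27 genes, where 0.0276% of all genes lay wholly lower and 0.0966% wholly higher.

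For most of these genes a large difference in array signal was outside the error. The 95% confidence interval of 25 of the 27 genes stayed inside 1.5-fold up or down, as did that of 99.3% of all genes. The exceptions were Ccnb2 and Ska2, each read on the brighter of its 2 probe sets. Differences below are flutamide minus corn oil on the log2 scale, with limma's standard error (SE).

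**Figure D1:**
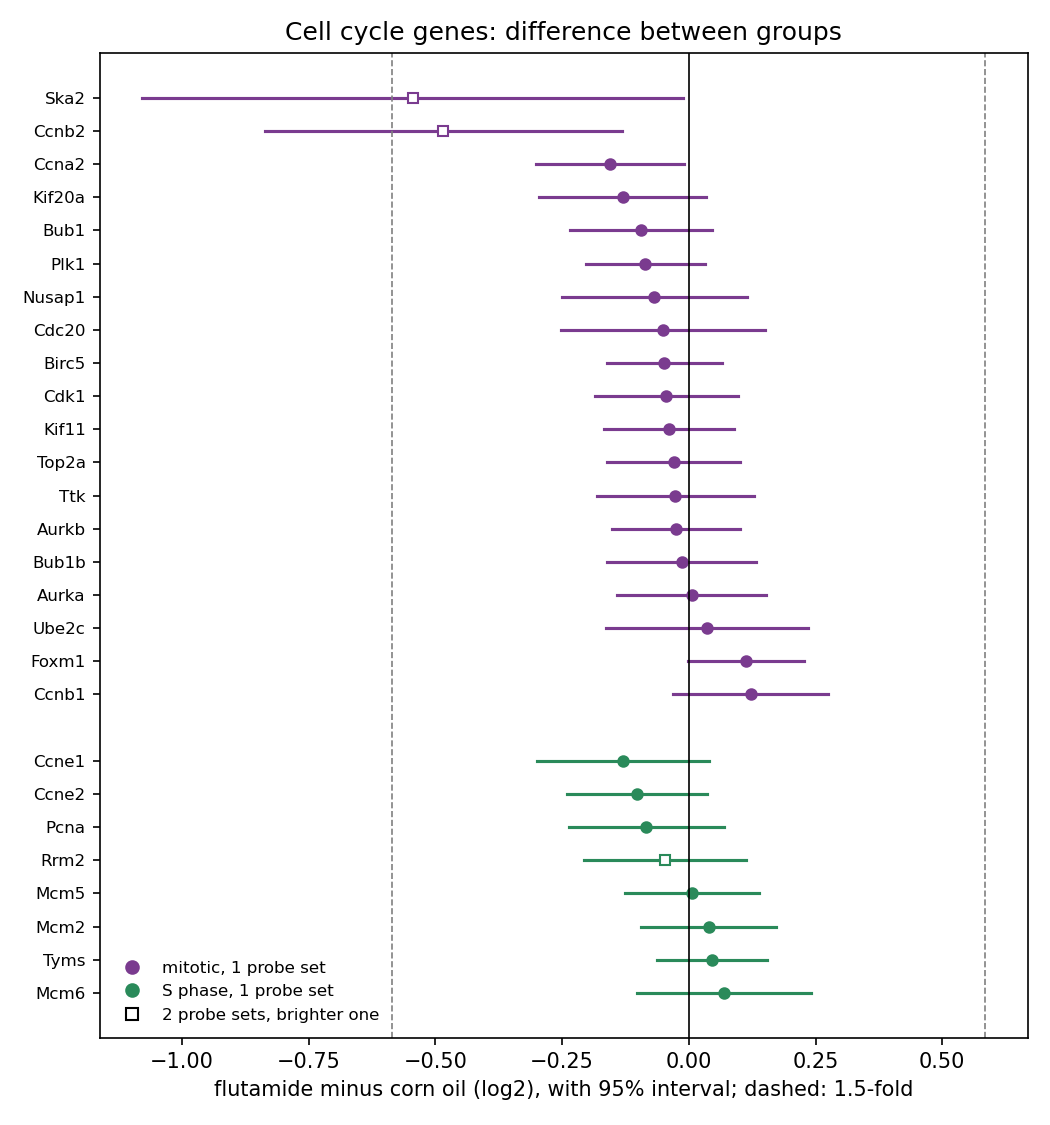
Each point is the difference of 1 gene, flutamide minus corn oil in log2 units, and the line is its 95% confidence interval from the limma fit (7 litters per group). Mitotic genes are above and S phase genes below, open squares are genes with 2 probe sets, and dashed lines mark 1.5-fold. Genes with 2 probe sets are drawn on the brighter one. The intervals of Ska2 and Ccnb2 alone cross a dashed line, and those of Ccna2, Ccnb2 and Ska2 exclude 0. On the other probe set, not drawn, the interval ran from -0.17 to 0.17 for Ccnb2 and from -0.29 to 0.02 for Ska2.

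The mitotic cyclins and their kinase had differences on both sides of 0. Ccnb2 encodes cyclin B2, a partner of the mitotic kinase. On its brighter probe set (10717195, NCBI gene 363088) the corn oil litters had a lowest value of 7.04, a median of 7.55 and a highest of 7.86, and the flutamide litters 6.32, 6.95 and 7.72. In words, 4 flutamide litters lay below every corn oil litter, while flutamide replicate 1 lay above 6 of the 7 corn oil litters. The difference was -0.48 (SE 0.17), a 0.715-fold level, with a limma adjusted p of 0.368 and a two-sided exact permutation p of 0.034. Leaving out single litters gave -0.60 to -0.37.

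The other Ccnb2 probe set (10918509) gave 7.10, 7.26 and 7.40 in corn oil and 6.95, 7.26 and 7.54 in flutamide litters, as lowest, median and highest. Here the flutamide litters spread to both sides of the corn oil litters. The difference was 0.001 (SE 0.08), with an interval from -0.17 to 0.17 and, adjusted in limma over every probe set with 1 symbol, a p of 0.999. The litters were also closer together, with an SD of 0.11 in corn oil and 0.20 in flutamide litters, against 0.25 and 0.48 on the brighter probe set.

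Ska2 encodes a subunit of the Ska complex, which holds kinetochores to spindle microtubules. Its brighter probe set (10711496, NCBI gene 287598) gave a lowest value of 5.44, a median of 5.84 and a highest of 6.86 in corn oil, and 4.44, 5.60 and 6.20 in flutamide litters. Corn oil replicates 3, 4 and 6, at 6.60 or above, were higher than every flutamide litter, and flutamide replicate 1 was far below the rest. The difference of -0.54 (SE 0.25) had a limma adjusted p of 0.541 and an exact permutation p of 0.108, and it was -0.36 without flutamide replicate 1.

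The other Ska2 probe set (10737129) lay between 5.35 and 5.81 in corn oil and between 5.28 and 5.62 in flutamide litters. Its difference was -0.13 (SE 0.08), limma p 0.613 when adjusted over every probe set with 1 symbol, and all 7 flutamide litters were below the corn oil median. Flutamide replicate 1, lowest on the brighter probe set at 4.44, was the highest flutamide litter here at 5.62.

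Probe set numbers on this array run along the chromosomes. Of 15178 named probe sets, 95.1% belonged to a gene on the commonest chromosome of their 20 nearest named neighbours by number, with chromosomes from RefSeq's GRCr8 table. For the probe sets of these genes this held for 26 of 30. The exceptions were the brighter probe sets of Ccnb2, Ska2 and Rrm2, and the probe set of Birc5, whose neighbours were from mixed chromosomes. For Birc5, 0 of the 20 neighbours were on its own chromosome, so its numbering does not show which gene it reads. As the only Birc5 probe set it was kept in the class values below, also in those named by own-chromosome probe sets.

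In each of the first 3 cases all 20 neighbours were on the chromosome of a copy of the gene. Ccnb2 is on chromosome 8, but 10717195 stands between Ptprk and Med23 on chromosome 1, where RefSeq lists the pseudogene Ccnb2-ps2. Ska2 is on chromosome 10, but 10711496 stands between Sec23ip and Tacc2 on chromosome 1, which flank Ska2l1. Rrm2 is on chromosome 6, but 10810144 stands between Cacna1a and Rfx1 on chromosome 19, which flank Rrm2l1. The second probe set of each gene stands among genes of its own chromosome. Transcripts of the gene and of its copy cannot be told apart in these values, so the Ccnb2 and Ska2 differences on the brighter probe sets are uncertain as to gene.

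**Figure D2:**
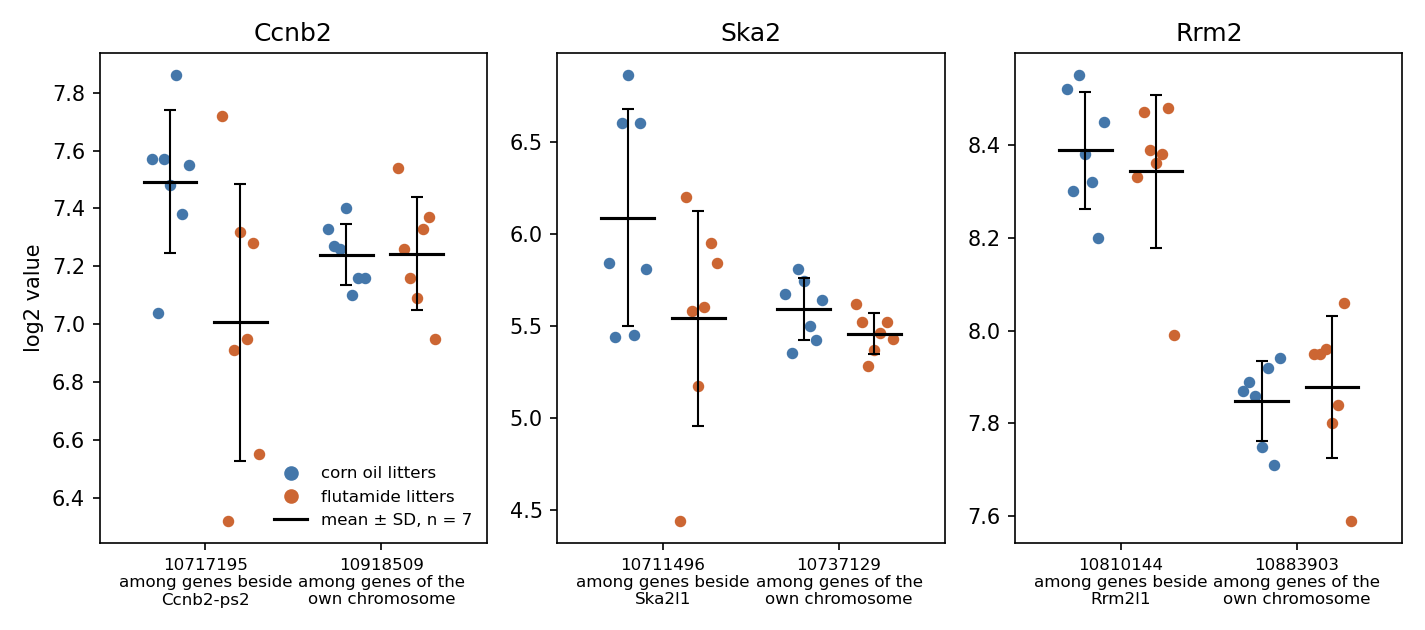
Log2 values of the 7 corn oil and 7 flutamide litters (points) with mean ± SD (bars) for both probe sets of Ccnb2, Ska2 and Rrm2. On the left of each panel is the probe set numbered among the neighbours of a gene copy, and on the right the one numbered among genes of the gene's own chromosome. Ccnb2 and Ska2 differ by -0.48 and -0.54 on the left and by 0.001 and -0.13 on the right.

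Cyclin A2, cyclin B1 and their kinase each had 1 probe set. Ccna2 encodes cyclin A2, which acts in S phase and in entry into mitosis. It had 6.97, 7.04 and 7.27 as lowest, median and highest value in corn oil and 6.66, 6.95 and 7.11 in flutamide litters. Of the flutamide litters 5 lay below every corn oil litter, and flutamide replicate 7 was the lowest. Flutamide litters stood at 0.898-fold, a difference of -0.16 (SE 0.07), with a limma adjusted p of 0.520 and an exact permutation p of 0.034, and it was -0.11 without flutamide replicate 7.

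Ccnb1, cyclin B1, differed in the other direction, by 0.12 (SE 0.07; limma adjusted p = 0.646). It had 6.79, 6.96 and 7.06 in corn oil and 6.85, 7.02 and 7.33 in flutamide litters, and flutamide replicates 2, 3 and 6 were above every corn oil litter. Cdk1, the kinase that these cyclins activate, differed by -0.04 (SE 0.07), with 5.97, 6.07 and 6.22 in corn oil and 5.84, 6.04 and 6.26 in flutamide litters. Its flutamide litters reached beyond the corn oil range at both ends.

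Foxm1, the transcription factor that drives mitotic genes, differed by 0.11 (SE 0.05; limma adjusted p = 0.554, exact permutation p = 0.015). Its unadjusted limma p was 0.054, and its interval, from -0.002 to 0.23, included 0. Foxm1 was picked for description after its values were seen, and the exact p is not adjusted. The gene had 6.61, 6.78 and 6.92 in corn oil and 6.85, 6.88 and 6.92 in flutamide litters. All 7 flutamide litters were above the corn oil median, and they were close together, with an SD of 0.03 against 0.11 in corn oil. Corn oil replicates 1 and 4 lay within or at the edge of the flutamide range. Top2a, the topoisomerase that untangles replicated chromosomes, differed by -0.03 (SE 0.06), with 8.89, 9.0 and 9.07 in corn oil and 8.75, 8.92 and 9.18 in flutamide litters.

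Genes of the spindle checkpoint, which delays anaphase until chromosomes are attached, had differences of -0.09 (SE 0.07) for the kinase gene Bub1, -0.01 (SE 0.07) for Bub1b and -0.03 (SE 0.07) for the kinase gene Ttk. Bub1 had 7.26, 7.43 and 7.57 in corn oil and 7.20, 7.31 and 7.55 in flutamide litters, with 3 flutamide litters below every corn oil litter. Among mitotic kinases and their partners, Plk1, polo-like kinase 1, differed by -0.09 (SE 0.06), with 6.77, 6.89 and 6.96 in corn oil and 6.64, 6.76 and 6.93 in flutamide litters. Aurka, the spindle pole kinase, differed by 0.005 (SE 0.07; -0.0059 with samples centred on their medians). Aurkb and Birc5, the kinase and survivin of the chromosomal passenger complex, differed by -0.03 (SE 0.06) and -0.05 (SE 0.05). The smallest limma adjusted p of these was 0.677, for Plk1.

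Motor and spindle genes had small differences below 0. Kif20a, a kinesin of cytokinesis, differed by -0.13 (SE 0.08; limma adjusted p = 0.648) and had 6.21, 6.33 and 6.47 in corn oil against 5.92, 6.26 and 6.44 in flutamide litters. It was -0.08 without flutamide replicate 7, which gave the lowest value. Nusap1, a microtubule-binding protein of the spindle, differed by -0.07 (SE 0.09) and Kif11, the kinesin that separates spindle poles, by -0.04 (SE 0.06). The anaphase-promoting complex is served by Cdc20, its activator, which differed by -0.05 (SE 0.10), and by Ube2c, its ubiquitin-conjugating enzyme, at 0.04 (SE 0.10). Ube2c ran from 5.62 to 6.42 in corn oil and from 5.91 to 6.16 in flutamide litters, so its corn oil litters enclosed the flutamide litters.

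The S phase genes lay on both sides of 0. Of the subunits of the MCM helicase, which unwinds DNA at the fork, Mcm6 differed by 0.07 (SE 0.08), Mcm2 by 0.04 (SE 0.06) and Mcm5 by 0.006 (SE 0.06; -0.0056 with samples centred on their medians). Mcm6, the highest of this class, had 6.81, 6.99 and 7.28 in corn oil and 6.91, 7.04 and 7.35 in flutamide litters. The cyclin E genes, which start S phase with their kinase, had the lowest differences of the class. Ccne1 differed by -0.13 (SE 0.08; limma adjusted p = 0.658), with 4.93, 5.11 and 5.39 in corn oil and 4.75, 5.00 and 5.21 in flutamide litters. Ccne2 differed by -0.10 (SE 0.07; limma adjusted p = 0.673). For each of the pair, 3 flutamide litters were below every corn oil litter.

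Pcna, the sliding clamp of DNA polymerase, differed by -0.08 (SE 0.07; limma adjusted p = 0.768). It had 8.30, 8.43 and 8.61 in corn oil and 8.04, 8.42 and 8.54 in flutamide litters, and 8.04 belonged to flutamide replicate 7, without which the difference was -0.03. Tyms, thymidylate synthase, differed by 0.05 (SE 0.05). Rrm2, the regulatory subunit of ribonucleotide reductase, differed by -0.05 (SE 0.08) on the probe set among neighbours of Rrm2l1. On the probe set among genes of its own chromosome, Rrm2 differed by 0.03 (SE 0.07).

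Set side by side, 15 of 19 mitotic and 4 of 8 S phase genes had a difference below 0, where 47.7% of all genes did. The median difference was -0.04 for mitotic genes, -0.02 for S phase genes and 0.005 for all genes. With the own-chromosome probe sets of Ccnb2, Ska2 and Rrm2 these became 14 of 19 with a median of -0.04 and 3 of 8 with a median of 0.02, and 1 gene, Ccna2, had an unadjusted limma p under 0.05. The direction and median are descriptions, since the genes share the litters.

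The contrast of the classes was read within each litter as the mean log2 value of the S phase genes minus that of the mitotic genes. With the brighter probe sets the corn oil litters gave 0.22 ± 0.07 and the flutamide litters 0.28 ± 0.05 (SD, n = 7 each), and the ranges overlapped, from 0.11 to 0.30 and from 0.21 to 0.36. With the own-chromosome probe sets it was 0.19 ± 0.05 and 0.21 ± 0.06 (SD, n = 7 each), a group difference of 0.02 in place of 0.06. The 7 S phase and 17 mitotic genes with a single probe set gave 0.02 ± 0.06 and 0.03 ± 0.07 (SD, n = 7 each). The gap between the classes thus differed by less than the spread between litters on the own-chromosome and single probe sets.

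**Figure D3:**
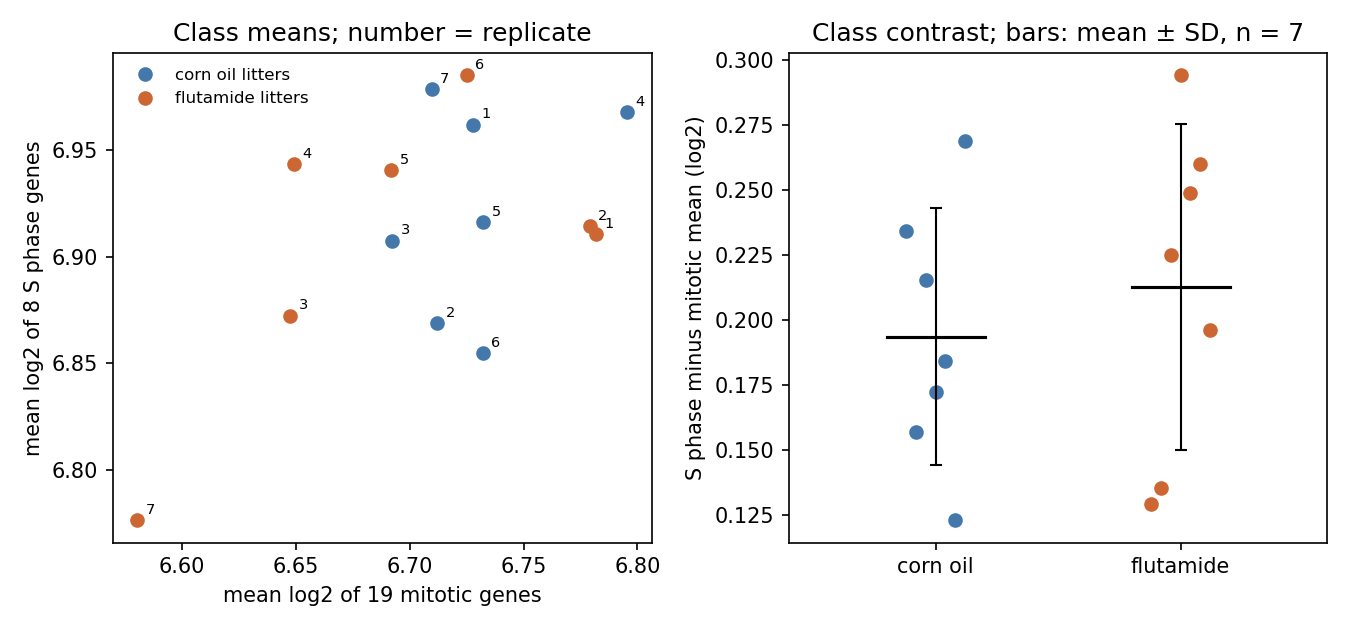
On the left, each point is 1 litter, with the mean log2 value of the 19 mitotic genes across and that of the 8 S phase genes up, on the own-chromosome probe sets, and the number is the replicate. On the right is the S phase mean minus the mitotic mean per litter, with mean ± SD of 7 litters. Flutamide replicate 7 is lowest on both axes at 6.58 and 6.78, and the groups overlap in the contrast.

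One litter stood low on both classes. Flutamide replicate 7 had a mitotic mean of 6.58 and an S phase mean of 6.78 on the own-chromosome probe sets, while the other litters ran from 6.65 to 6.80 and from 6.85 to 6.99. It held the lowest value for 6 of the 27 genes, and for 12.4% of all genes tested. This litter also had the smallest array SD, 1.68, whose part in the result was not tested. Without it, the difference of the mitotic means was -0.02 instead of -0.04, and that of the S phase means 0.005 instead of -0.02. Corn oil replicate 4 held the highest value for 7 of the 27 genes and for 8.98% of all genes, and flutamide replicate 1 for 5 of the 27 and for 6.04% of all genes.

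Other genes of the pathway were read from lists chosen by function. None of them passed at an adjusted p under 0.05 in either direction. Of all genes, 47.7% lay below 0, and 3.46% had lower and 5.70% higher values at an unadjusted p under 0.05. Of 38 further mitotic genes measured, 28 lay below 0, with a median of -0.04, and 5 had lower and 1 higher values at an unadjusted limma p under 0.05. Of 33 further DNA replication genes 20 lay below 0, with a median of -0.03, and 2 had lower and 1 higher values at that threshold. Of 15 genes of cyclin D, its kinases, the E2F factors and the retinoblastoma family 9 lay below 0, with 0 past that threshold. Of 7 inhibitors of cyclin-dependent kinases 4 lay below 0, and 1 was past it.

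The smallest p-value among the replication genes was that of Mcm10, a loading factor of the replication fork. It had 5.91, 6.13 and 6.28 in corn oil and 5.58, 5.83 and 5.98 in flutamide litters, with 6 of 7 flutamide litters below every corn oil litter. The difference was -0.29 (SE 0.07), a 0.817-fold level, with a limma adjusted p of 0.302 and an exact permutation p of 0.0012, and leaving out single litters gave -0.32 to -0.25. Rfc5, a subunit of the clamp loader, differed by -0.19 (SE 0.07; limma adjusted p = 0.413, exact permutation p = 0.016). Pold1, the catalytic subunit of DNA polymerase delta, differed by 0.16 (SE 0.06; limma adjusted p = 0.443, exact permutation p = 0.015). The named genes of each pathway list were picked by their limma p-values, and the exact p-values are not adjusted. All 7 flutamide litters were below the corn oil median for Rfc5 and above it for Pold1.

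Among the further mitotic genes Cdca3, which triggers degradation of an inhibitor of mitotic entry, had 6.11, 6.19 and 6.31 in corn oil and 6.29, 6.38 and 6.54 in flutamide litters. Of the flutamide litters 6 were above every corn oil litter. Its difference was 0.20 (SE 0.06), with a limma adjusted p of 0.338 and an exact permutation p of 0.0012. Cdc25c, the phosphatase that activates the mitotic kinase, had 5.31, 5.39 and 5.56 in corn oil and 5.08, 5.21 and 5.38 in flutamide litters. It differed by -0.18 (SE 0.06; limma adjusted p = 0.368, exact permutation p = 0.013), and 4 flutamide litters were below every corn oil litter.

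Nek2, a kinase of centrosome separation, differed by -0.23 (SE 0.07; limma adjusted p = 0.348, exact permutation p = 0.0041), with 5 flutamide litters below every corn oil litter. Its single probe set (10908127) is also uncertain as to gene. Nek2 is on chromosome 13, while all 20 named neighbours of the probe set were on chromosome 8, and it stands between Slc36a4 and Chordc1, which flank the pseudogene Nek2l1. The other 11 of the 12 named pathway genes had probe sets among genes of their own chromosome.

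**Figure D4:**
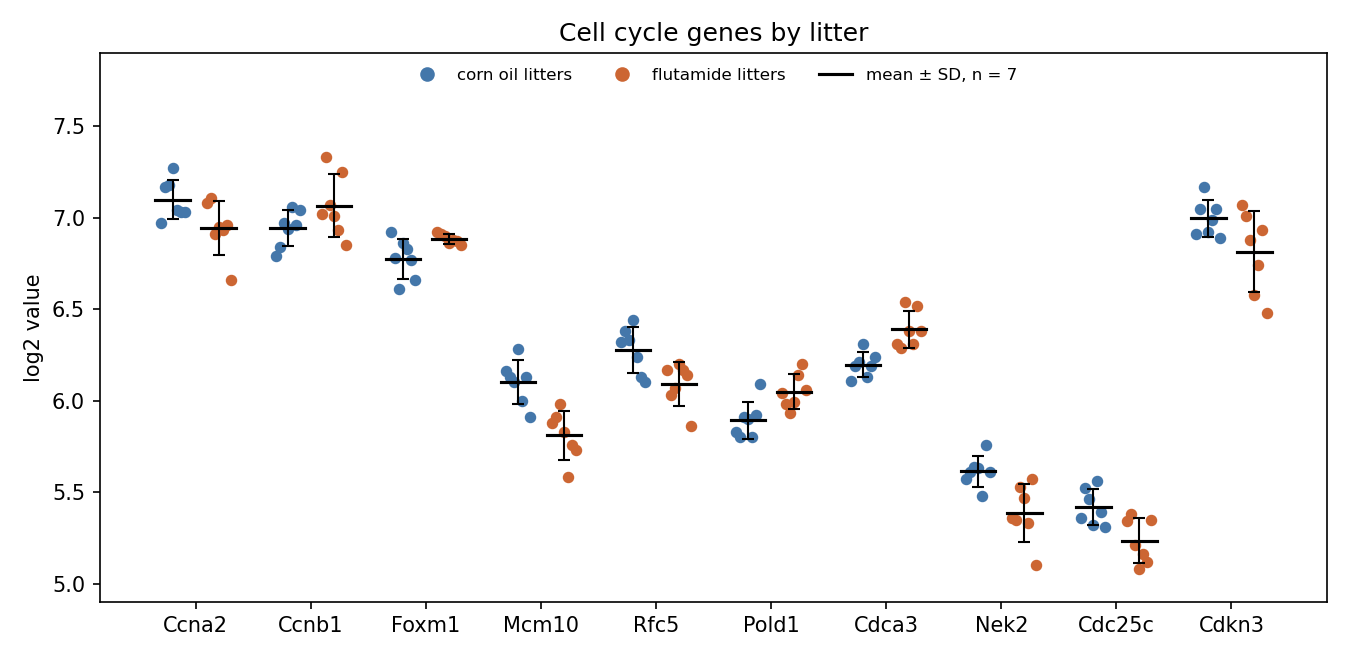
Log2 values of the 7 corn oil and 7 flutamide litters (points) with mean ± SD (bars) for the cyclin genes Ccna2 and Ccnb1, for Foxm1 and for 7 further pathway genes. All 7 flutamide litters are below the corn oil median for Mcm10, Rfc5, Nek2 and Cdc25c and above it for Foxm1, Pold1 and Cdca3. No gene passed the test at an adjusted p under 0.05. The Nek2 probe set is numbered among neighbours of Nek2l1. Levels are not compared between genes.

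The regulators of G1 had differences between -0.06 and 0.07. Rb1, the retinoblastoma protein gene, differed by -0.06 (SE 0.06), E2f7, an E2F repressor, by 0.06 (SE 0.06) and Rbl2, a pocket protein of quiescent cells, by -0.04 (SE 0.06), with limma adjusted p from 0.779 to 0.858. Of the inhibitors Cdkn3, a phosphatase that acts on cyclin-dependent kinases and is itself made in mitosis, differed by -0.19 (SE 0.08; limma adjusted p = 0.53, exact permutation p = 0.072). For this gene 4 flutamide litters lay below every corn oil litter. Cdkn1a, the p21 gene induced by p53, differed by 0.06 (SE 0.08) and Cdkn2b by -0.02 (SE 0.07).

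Markers of cell types that divide or surround dividing cells were read in the same fit, and none passed. All 7 hair follicle markers lay below 0, with a median of -0.12 and the lowest at -0.30 for the inner root sheath keratin gene Krt73, and the sum of their unlogged values ran from 1038 to 1459 in corn oil and from 1031 to 1333 in flutamide litters. All 9 smooth muscle and pericyte markers lay below 0, with a median of -0.14 and sums from 2139 to 2497 and from 1924 to 2440, and for 2 of them the groups did not overlap, where 0.0276% of all genes lay wholly lower. At an unadjusted limma p under 0.05, 3 of 7 hair follicle and 4 of 9 smooth muscle and pericyte markers had lower values, against 3.46% of all genes, and 0 of either list had higher values. Of the skeletal muscle markers 6 of 7 lay below 0, with a median of -0.17 and sums from 517 to 703 and from 451 to 659. All 6 basal keratinocyte markers lay below 0, with a median of -0.04 and sums from 2458 to 2859 and from 2295 to 2746. The marker lists were chosen with earlier results of these data known, so their counts are descriptions. The part of these markers in the values of the mitotic genes was not tested.

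In the other marker lists, differences below 0 were found for 2 of 4 suprabasal keratinocyte, 4 of 8 dermal fibroblast, 4 of 6 endothelial and 4 of 5 macrophage and lymphocyte markers, with medians of -0.04, -0.02, -0.06 and -0.06. All 3 red blood cell markers lay above 0, with a median of 0.09. Lower values at an unadjusted limma p under 0.05 were found for 1 of 7 skeletal muscle and 1 of 8 dermal fibroblast markers. The same held for 1 of 5 macrophage and lymphocyte markers, where 3.46% of all genes had lower values. The keratinocyte, endothelial and red blood cell lists had 0 such markers, and 0 markers of any of these lists had higher values. None of the marker values was 0, and no detection calls were used.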

How the data were processed

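Foreskin RNA of 14 litters, 7 per group, was hybridised to 1 array per litter, after amplification of 50 ng of total RNA per the labels' protocols. The authors deposited log2 values of 28826 probe sets, made with RMA per the submitters' processing notes. Its version, summary level and genome build were not given in the sources used here. RMA corrects background and normalises between arrays, which removes changes shared by most genes and shrinks differences of dim probe sets.

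Gene names came from GEO's platform annotation, brought up to date by NCBI gene number in RefSeq's GRCr8 table (14471 of 14497 tested genes matched). Only the 15209 probe sets with 1 symbol were tested, leaving out 306 with several symbols and 13311 without one or unlisted. Each gene was read on the probe set with the highest mean over the 14 samples. The group difference was fitted with lmFit and eBayes of limma 3.58.1, run in R 4.3.3. Its two-sided p-values were adjusted by Benjamini and Hochberg's method over all genes, with a threshold of 0.05. The fit was tested on simulated data. Exact permutation tests ran over all 3432 splits of the litters, with 0.000583 as the smallest possible p, and are not adjusted. The number of arrays limits the precision.

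The genes and lists were chosen with earlier results of these data known. Described with litter values were genes with an unadjusted p under 0.05, fixed genes, the extremes of each class and the 3 smallest p-values of each pathway list. Bub1, Plk1, Foxm1, Kif20a and Ube2c were added after their values were seen. The neighbour check of probe sets and the own-chromosome alternative were also added after the values were seen. Alternatives were other summaries, filters, scalings and models, each litter left out, and the replicate number as a block. No label ties equal replicate numbers to each other. Deviations from the group means correlated at -0.07 to 0.15 between same-numbered litters, and 1 of 7 pairs passed 0.1, so the fit was unpaired.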

Additional observations from a re-analysis of the deposited data

Results flagged for a closer look

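Among 90 sets of 7 litters (each gene or class mean in each group), 3 had a litter whose gap to its nearest neighbour was too large a share of the range by Dixon's test at 95%, which chance flags in about 1 of 20 sets. For Pcna, flutamide replicate 7 had 8.04, while the other flutamide litters lay between 8.37 and 8.54. For Rrm2 on its brighter probe set, flutamide replicate 7 had 7.99, with the others between 8.33 and 8.48. For Pold1, corn oil replicate 7 had 6.09, with the others between 5.80 and 5.92. Without flutamide replicate 7 the Pcna difference was -0.03 and the Rrm2 difference 0.01, and without corn oil replicate 7 the Pold1 difference was 0.19.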

How the results depend on the processing

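All 27 cell cycle genes stayed short of an adjusted p of 0.05 under the 25 alternatives run, and 18 kept their direction under every one of them. Over all genes, limma called 1, but 0 with the replicate number as a block, with the array SD as covariate and with both corn oil replicate 1 and flutamide replicate 7 removed, 2 with trend and robust variances, and 0 to 1 with single litters left out. The replicate block changed no call among the cell cycle genes, and 2 of 14 litters were best matched by their own number.

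Cell cycle genes with lower values at an unadjusted p under 0.05 numbered 3, and 1 to 4 with single litters left out. Other alternatives gave 1 to 3, with 1 for the array SD as covariate and for the own-chromosome probe sets. Testing all probe sets, trend and robust variances, and array weights each gave 2. Cell cycle genes with higher values at that threshold numbered 0, and 0 to 1 with single litters left out. They numbered 1 with quantile normalization, array weights, the array SD as covariate, or with that pair of litters removed. The median difference ran from -0.06 to -0.03 for mitotic and from -0.04 to 0.01 for S phase genes with single litters left out, and was 0.02 for S phase genes with the array SD as covariate.

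Over all genes, 826 higher and 502 lower values at an unadjusted p under 0.05 became 1580 and 1242 when all probe sets were tested, and the higher count became 521 among genes with a mean of at least 5.

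These differences changed sign. Mcm5 was -0.0056 with samples centred on their medians, -0.0081 with quantile normalization and -0.013 with the pair of litters removed, and Aurka was -0.0059 with centring and -0.0033 with the pair removed. With the array SD as covariate Rrm2 was 0.028, Bub1b 0.016, Ube2c -0.039 and Ttk 0.0038. With the pair removed Rrm2 was 0.035, Bub1b 0.030 and Aurkb 0.0013. On the own-chromosome probe sets Rrm2 was 0.027, and Ccnb2 was 0.0013 in place of -0.48. With single litters left out, Mcm5 ran from -0.022 to 0.032, Rrm2 from -0.078 to 0.013, Top2a from -0.067 to 0.0043, Bub1b from -0.044 to 0.037, Aurka from -0.031 to 0.047, Aurkb from -0.050 to 0.00069, Ube2c from -0.027 to 0.11, Ttk from -0.060 to 0.025 and Cdkn2b from -0.069 to 0.020. The cause of these changes was not tested. No detection calls were used, so signal over background is unknown.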
